A study of Mus musculus with 12 samples.

Results

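Enzymes that write, read and erase marks on DNA and histones were measured in pituitary glands of mice whose diet had lacked vitamin D during 1 of 2 periods before adulthood. The members are all non-control probes whose gene name in the scanner files is Dnmt, Hdac, Sirt, Kdm, Setd, Prmt or Mbd followed by a number, or Tet1 to Tet3, Ezh1, Ezh2, Suz12 or Eed. These are 70 genes, of 30119 gene names on the array, measured by 113 of its 39429 probes. A filter that asked for a signal well above background in at least 4 of 12 samples kept 103 of these probes and 66 of these genes. The genes it removed are Mbd3l1, Mbd3l2, Kdm4d and the Y-linked Kdm5d, which were well above background in 0 or 1 of 12 samples.

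The 12 animals were females of the inbred strain C57BL/6J, aged 2 months, with 4 in each of 3 groups. The control group ate a normal diet throughout, the early life group had a vitamin D deficient diet limited to early life, and the peripubertal group had it around puberty. The comparison asks whether the adult gland differs by the period of deficiency. Each of 6 Agilent 2-colour arrays carried 2 animals of 1 group, the odd-numbered animal in Cy3 and the even-numbered animal in Cy5.

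The files disagree about the names of both deficient groups. Each of the 8 deficient-group columns of the deposited value table equals, within 1e-06 on the log2 scale, a channel that the scanner files place in the other deficient group. The control columns of that table equal no scanned channel, with at most 0.04% of values matching, and were not used. Names below follow the scanner files. With the names of the value table, early life and peripubertal change places in every sentence. Sample numbers of these groups then change too, 1 with 3 and 2 with 4, so that peripubertal 1 becomes early life 3. The files do not settle which is right. Control arrays were on slide 1 and all other arrays on slide 2, so diet and slide cannot be told apart in a comparison with control. Early life and peripubertal samples shared a slide.

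DNA methyltransferases place methyl groups on cytosine, TET dioxygenases oxidise them as a step toward removal, and some proteins with a methyl-CpG-binding domain read them. Polycomb repressive complex 2, SET domain enzymes and arginine methyltransferases methylate histones, and lysine demethylases reverse lysine methylation. Histone deacetylases and the NAD-dependent sirtuins remove acetyl groups. Such marks can pass through cell division, and for that reason these enzymes are often studied where a diet early in life is followed by differences in the adult.

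The probes are 60 bases long, with 25% to 60% G and C, and 27 genes have more than 1 kept probe. Those shown here belong to genes on which the results turn: Prmt8 and Setd1a had small p-values in the comparisons of early life, Dnmt3l in those with control, the Hdac10 probes gave the same direction, and the probes of Tet1, Hdac8 and Kdm4a gave different values. Positions are on mm9, as the files give them. The whole probe hybridises, so no base is set in capitals, and sequences run 5′ to 3′.
Dnmt3l, chr10:77526112-77526171, plus strand: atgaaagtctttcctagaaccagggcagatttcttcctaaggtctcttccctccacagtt
Setd1a, chr7:134943548-134943607, plus strand: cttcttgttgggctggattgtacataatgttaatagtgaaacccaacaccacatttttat
Prmt8, chr6:127639914-127640674, minus strand: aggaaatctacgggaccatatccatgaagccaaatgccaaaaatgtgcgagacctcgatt
Tet1, brightest probe, chr10:62276042-62276101, minus strand: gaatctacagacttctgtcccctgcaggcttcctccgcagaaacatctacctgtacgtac
Tet1, probe toward the gene's end, chr10:62274448-62274507, minus strand: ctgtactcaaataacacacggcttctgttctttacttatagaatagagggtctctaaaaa
Tet1, probe toward the gene's start, chr10:62301856-62301915, minus strand: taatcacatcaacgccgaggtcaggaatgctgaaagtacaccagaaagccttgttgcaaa
Hdac10, brightest probe, chr15:88954002-88954061, minus strand: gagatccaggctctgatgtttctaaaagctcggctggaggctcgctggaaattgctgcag
Hdac10, other probe, chr15:88953840-88953899, minus strand: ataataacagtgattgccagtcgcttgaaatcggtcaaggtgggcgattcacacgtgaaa
Hdac8, brightest probe, chrX:99503070-99597969, minus strand: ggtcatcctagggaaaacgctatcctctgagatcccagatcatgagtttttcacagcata
Hdac8, other probe, chrX:99700320-99700379, minus strand: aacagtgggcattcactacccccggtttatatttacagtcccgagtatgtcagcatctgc
Kdm4a, brightest probe, chr4:117809639-117809698, minus strand: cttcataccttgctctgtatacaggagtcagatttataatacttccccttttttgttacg
Kdm4a, other probe, chr4:117814727-117814786, minus strand: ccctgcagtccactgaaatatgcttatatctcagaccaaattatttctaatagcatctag
The positions of the Prmt8 probe and of the brightest Hdac8 probe span 761 and 94900 bases, more than the probe's own length, so that each lies on more than 1 genomic block. The other probes shown lie on 1 block.

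All levels below are normalised log2 intensities of the brightest probe of a gene, and all differences are log2 differences from a limma model of diet group and dye in which array-mates may be correlated. Adjusted p-values are limma's two-sided p-values after Benjamini-Hochberg adjustment across every gene tested, with a threshold of 0.05. The labels call the 4 animals of a group biological replicates. A spot marked as an outlier by the scanner software was lost for both animals of its array, so 46 of the 66 genes have all 12 values. Of the 66 genes, 64 were well above background in every sample where they were measured, and no member spot was saturated.

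**Figure D1:**
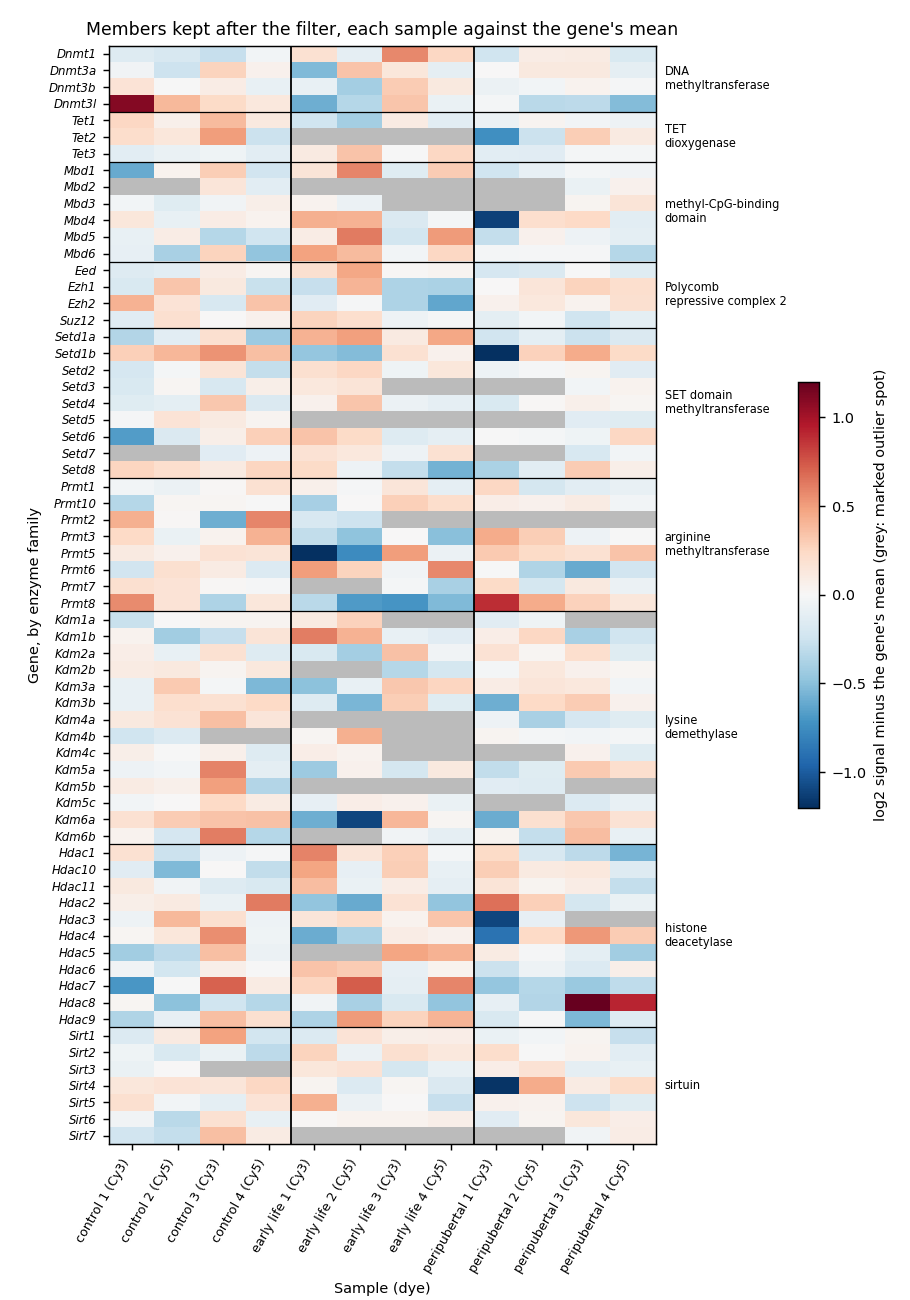
Each row is 1 of the 66 kept genes and each column 1 of the 12 samples, with its dye. Colour gives the log2 signal minus the gene's own mean, saturating at the ends of its scale, and grey marks spots lost as outliers; peripubertal sample 1 holds the lowest values of Setd1b, Sirt4 and Mbd4.

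No member passed the threshold in any comparison. Early life was compared with control for 60 members, of which 0 passed, beside 0.0979% of all 18389 genes tested. At an unadjusted p under 0.05 there were 13 members, which is 21.7% of the members beside 17.3% of all genes. Of these, 7 were higher and 6 lower in early life, and over all genes the shares were 9.3% higher and 7.98% lower. Peripubertal was compared with control for 65 members, with 0 past the threshold beside 0.0213% of 18776 genes, and 5 members, or 7.69%, had an unadjusted p under 0.05 beside 5.11% of all genes. Of these, 2 were higher and 3 lower, beside 1.79% and 3.32% of all genes. Early life was compared with peripubertal for 59 members, with 0 past the threshold beside 0.34% of 18244 genes. Here 12 members had an unadjusted p under 0.05, which is 20.3% of the members and 20.3% of all genes. Of these, 8 were higher and 4 lower in early life, beside 11.1% and 9.19% of all genes. The shares of members were thus near those of all genes in each comparison.

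Prmt8 was not well above background in any early life sample and has only an approximate bound there, so the ranges of early life leave it out. Differences of the members ran from −0.63 to 0.56 in early life against control, with 33 of 60 above 0 beside 53.5% of all genes. In peripubertal against control they ran from −0.76 to 0.80, with 27 of 65 above 0 beside 51.4% of all genes. Between the deficient groups they ran from −0.81 to 0.78, with 36 of 59 above 0 in early life beside 53.9% of all genes. The median difference of the members was 0.07, −0.02 and 0.07 in the same order, and over all genes tested it was 0.03, 0.01 and 0.03. The median 95% interval of a member reached 0.42 to either side of its difference in both comparisons with control and 0.41 in the comparison of both deficient groups. These intervals are not adjusted for the number of genes. Differences smaller than that mostly had intervals that include 0, which do not show that a level was the same. Larger ones could also miss the adjusted threshold with these 6 arrays, such as 0.80 for Hdac8 in peripubertal against control (adjusted p 0.974).

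**Figure D2:**
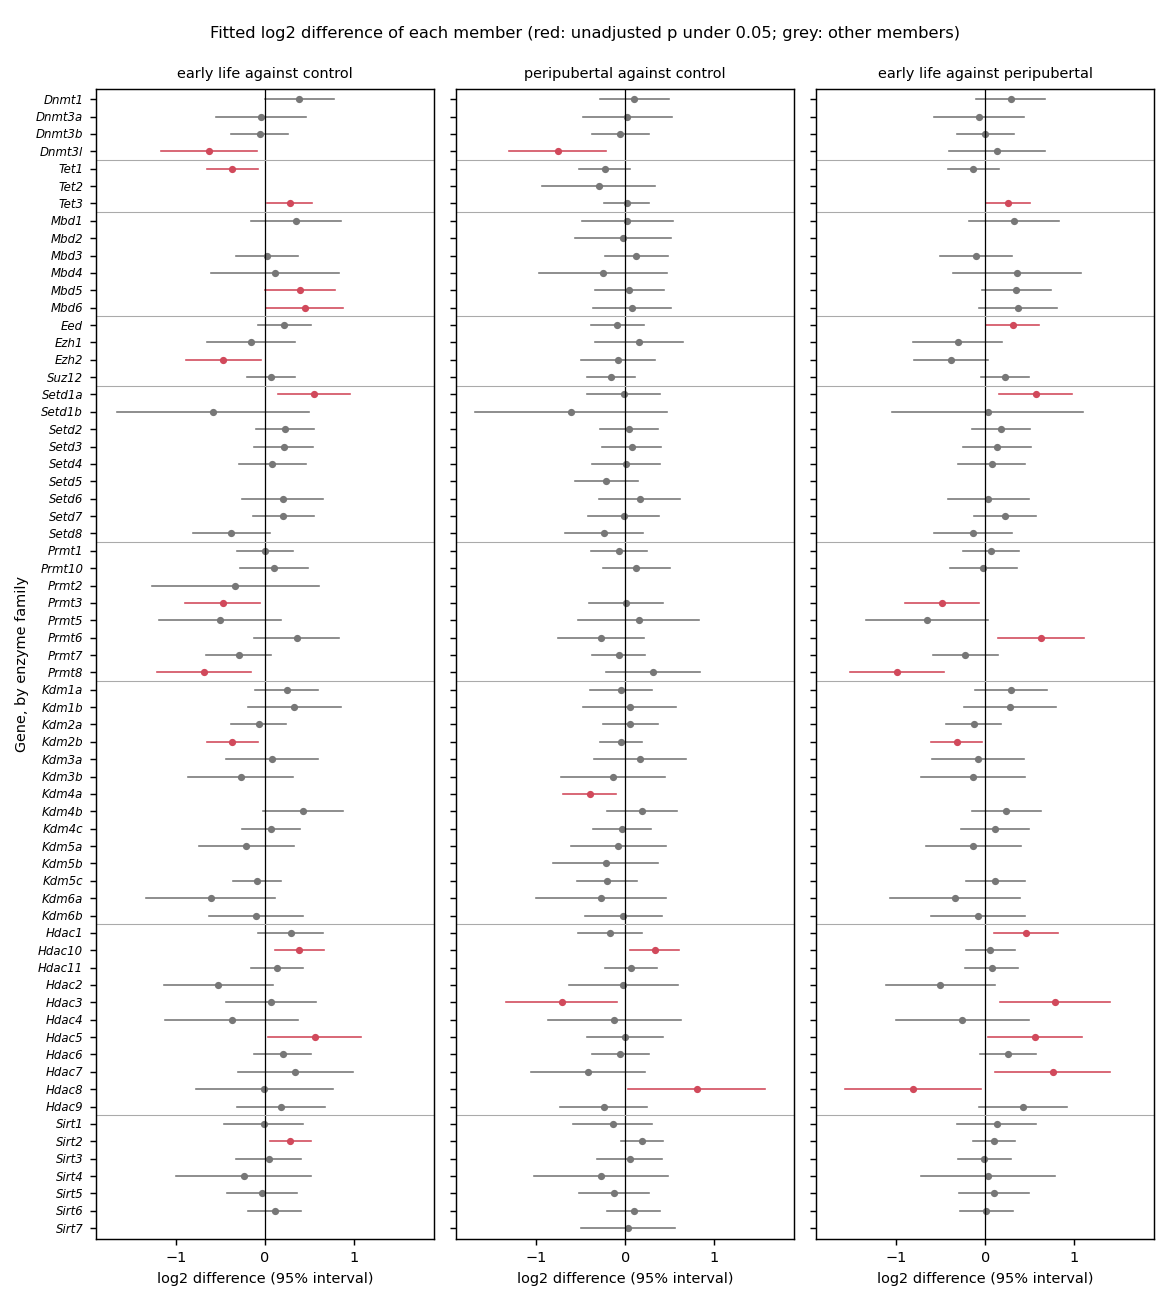
Points are fitted log2 differences of single genes and bars their 95% intervals, in 3 panels for the 3 comparisons, with genes ordered by family. The 13, 5 and 12 members with an unadjusted p under 0.05 are red, and none of them passed after adjustment over all genes.

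Among the DNA methyltransferases, Dnmt3l had the largest difference from control in both deficient groups. Dnmt3l encodes a partner of the de novo methyltransferases that has no catalytic activity of its own. Its log2 level was 9.96, 9.25, 9.09 and 8.99 in control samples 1 to 4, 8.28, 8.52, 9.19 and 8.78 in early life, and 8.84, 8.54, 8.54 and 8.34 in peripubertal samples. Control 1 was the highest of all 12 by 0.71. All peripubertal values lay below all control values, while early life overlapped control through early life 3. The difference from control was −0.63 (SE 0.25, adjusted p 0.238) in early life and −0.76 (SE 0.25, adjusted p 0.768) in peripubertal samples. Both comparisons use the same control samples.

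Dnmt1, which copies methylation onto the new strand after replication, was at 10.58, 10.54, 10.46 and 10.71 in control and at 10.92, 10.62, 11.31 and 10.98 in early life samples. Peripubertal samples had 10.49, 10.82, 10.83 and 10.56. Early life 3 stood highest and early life 2 lay within the control range. The difference of early life from control was 0.39 (SE 0.18, adjusted p 0.293). The de novo methyltransferases differed less between group means: Dnmt3a averaged 11.19 ± 0.21 in control, 11.14 ± 0.37 in early life and 11.21 ± 0.11 in peripubertal samples (SD, n = 4 each). Dnmt3b averaged 7.98 ± 0.11, 7.92 ± 0.31 and 7.93 ± 0.05 in the same order. The spread of Dnmt3a and Dnmt3b was widest in early life samples.

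The TET enzymes gave opposite signs. Tet3 was at 8.46, 8.51, 8.54 and 8.46 in control, at 8.70, 8.94, 8.59 and 8.84 in early life, and at 8.46, 8.45, 8.56 and 8.56 in peripubertal samples. The 4 early life values lay above the 8 others, and Tet3 had the smallest pooled SD within groups of any member with all values, 0.10. Its difference was 0.28 against control (SE 0.12, adjusted p 0.261) and 0.26 against peripubertal samples (SE 0.12, adjusted p 0.24). The other kept Tet3 probe was well above background in 2 of 4 control, 3 of 4 early life and 0 of 4 peripubertal samples, and gave 0.33 (SE 0.18) against control.

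Tet1 was at 8.96, 8.77, 9.10 and 8.83 in control, at 8.47, 8.31, 8.82 and 8.59 in early life, and at 8.65, 8.75, 8.68 and 8.65 in peripubertal samples. Peripubertal values all lay below the control values, and early life overlapped control through early life 3. The difference of early life from control was −0.37 (SE 0.13, adjusted p 0.21). The other Tet1 probes gave 0.28 (SE 0.22) and 0.05 (SE 0.17) there, so the sign depended on the probe. Tet2 had no early life value, since its brightest spots there were marked as outliers. Another Tet2 probe, well above background in all 12 samples, was at 8.43, 9.48, 8.86 and 9.15 in early life and gave −0.20 against control (SE 0.37). At the brightest probe, control was at 10.58, 10.51, 10.88 and 10.11 and peripubertal samples were at 9.64, 10.11, 10.67 and 10.48, with peripubertal 1 lowest and the groups overlapping, and the difference was −0.30 (SE 0.29, adjusted p 0.999).

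Genes of the methyl-CpG-binding domain family were above 0 in early life against control in 5 of 5 tested, with differences between 0.02 and 0.45. Mbd1, Mbd3, Mbd4, Mbd5 and Mbd6 are the genes measured. The smallest adjusted p among them was 0.283. In peripubertal samples 4 of 6 were above 0, between −0.24 and 0.13. Other probes of Mbd1 and Mbd3 gave the opposite sign, −0.40 (SE 0.21) and −0.33 (SE 0.12), the first of them well above background in 2 of 4 early life samples. Another Mbd5 probe gave 0.54 (SE 0.24), the same sign, and a further one was well above background in 0 of 4 early life samples. Mbd2 had no early life value at its brightest probe, and its other probe, well above background in all 12 samples, gave 0.35 (SE 0.11, adjusted p 0.186 over all probes). That probe was between 11.67 and 11.74 in early life, 11.17 and 11.51 in control, and 11.25 and 11.43 in peripubertal samples. Counts of members use the brightest probe and do not include it.

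**Figure D3:**
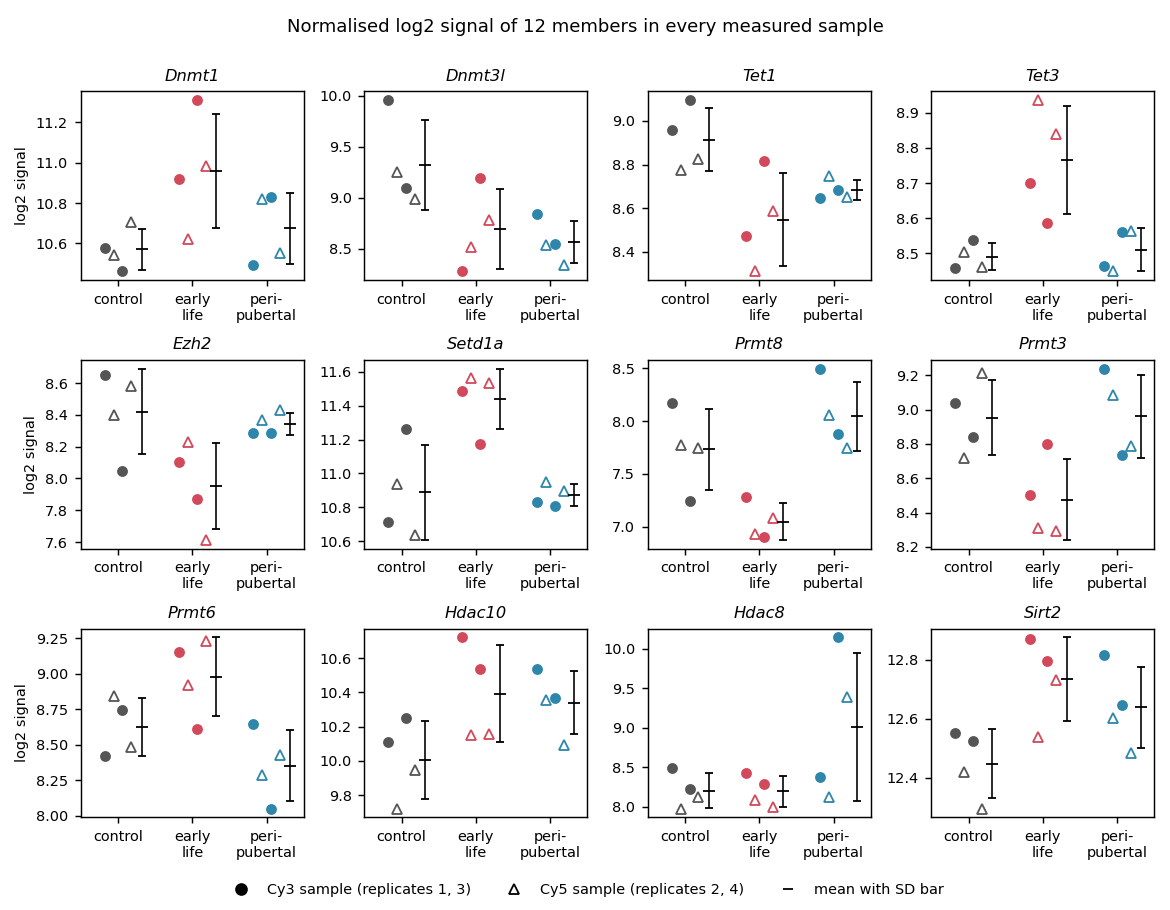
Each panel shows the normalised log2 signal of 1 of 12 genes, with filled circles for Cy3 samples, open triangles for Cy5 samples, and a bar for the group mean and SD. Vertical axes differ between panels; early life values of Tet3 lie above all others, those of Prmt8 lie below all peripubertal values, and peripubertal samples 3 and 4 stand above all others for Hdac8.

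Polycomb repressive complex 2 places methyl groups on lysine 27 of histone H3 through Ezh1 or Ezh2, with Suz12 and Eed as core subunits. Ezh2 was at 8.65, 8.40, 8.05 and 8.58 in control, at 8.11, 8.23, 7.87 and 7.61 in early life, and at 8.29, 8.37, 8.29 and 8.43 in peripubertal samples. Early life lay below every peripubertal sample and overlapped control. Its difference was −0.47 against control (SE 0.19, adjusted p 0.25) and −0.39 against peripubertal samples (SE 0.19, adjusted p 0.271). Eed was higher in early life than in every peripubertal sample, at 11.86, 12.12, 11.68 and 11.69 against 11.46, 11.49, 11.66 and 11.52, with a difference of 0.31 (SE 0.14, adjusted p 0.236). In control it was at 11.51, 11.54, 11.75 and 11.69. Suz12 averaged 10.09 ± 0.13 in control, 10.16 ± 0.16 in early life and 9.94 ± 0.09 in peripubertal samples (SD, n = 4 each).

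Ezh1 was at 11.38, 12.06, 11.28 and 11.27 in early life, with early life 2 far above the others. It was at 11.47, 11.99, 11.77 and 11.38 in control and between 11.66 and 11.91 in peripubertal samples. The difference of early life was −0.16 against control (SE 0.23, adjusted p 0.75) and −0.31 against peripubertal samples (SE 0.23, adjusted p 0.442). Another Ezh1 probe, well above background in all 12 samples, had early life 2 at 10.31, within the early life range of 10.20 to 10.77. It gave −0.06 (SE 0.18) against control, and a further probe, well above background in 7 of 12 samples, gave 0.21 (SE 0.11).

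Of the SET domain enzymes, Setd1a, a methyltransferase for lysine 4 of histone H3, had the second smallest p of the members in both comparisons of early life. It was at 10.72, 10.94, 11.26 and 10.64 in control, at 11.49, 11.56, 11.17 and 11.53 in early life, and at 10.83, 10.95, 10.81 and 10.90 in peripubertal samples. Early life lay above every peripubertal value, and its overlap with control rested on control 3 and early life 3. The difference was 0.55 against control (SE 0.19, adjusted p 0.198) and 0.57 against peripubertal samples (SE 0.19, adjusted p 0.145). Without control 3 the difference from control was 0.72 (SE 0.14, adjusted p 0.0383), which passed the threshold, and it did so in none of the other settings tried. Of the family, 6 of 8 genes were above 0 in early life against control, 4 of 9 in peripubertal against control and 7 of 8 in early life against peripubertal.

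Arginine methyltransferases held the member with the smallest adjusted p. Prmt8 encodes a membrane-associated enzyme best known from neurons. Its log2 level was 8.18, 7.77, 7.24 and 7.75 in control, 7.28, 6.93, 6.90 and 7.08 in early life, and 8.50, 8.06, 7.88 and 7.75 in peripubertal samples. Every early life value lay below every peripubertal value, while control 3 fell within the early life range. Prmt8 was well above background in 3 of 4 control, 0 of 4 early life and 4 of 4 peripubertal samples, so early life has only an approximate bound. Each early life sample was raised to the lowest signal well above background in its channel, which gave a mean of 7.36. Prmt8 was then 1.6-fold higher in peripubertal samples and 1.29-fold higher in control. These folds are not strict minima, since a Dnmt3b spot not well above background reached 7.83 in early life 3. The control mean also includes control 3, itself not well above background. The fit on the measured values, not on these raised values, had adjusted p-values of 0.0944 and 0.208. The measured means were 8.05 in peripubertal, 7.73 in control and 7.05 in early life samples, and their fitted difference between early life and peripubertal was −0.997 (SE 0.24). Without control 3 that difference was again −0.997, with an SE of 0.19 and an adjusted p of 0.0378, past the threshold, since all groups share the estimate of spread.

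Prmt6, which methylates arginine 2 of histone H3, was at 9.15, 8.92, 8.61 and 9.23 in early life and at 8.64, 8.29, 8.05 and 8.43 in peripubertal samples, with an overlap at early life 3 and peripubertal 1. Control samples were at 8.42, 8.84, 8.75 and 8.49. The difference between the deficient groups was 0.63 (SE 0.22, adjusted p 0.16), and the other Prmt6 probes gave 0.19 (SE 0.13) and −0.17 (SE 0.13), the latter well above background in 1 of 4 early life samples. Prmt3, whose known substrate is a ribosomal protein, was at 8.50, 8.31, 8.80 and 8.29 in early life and at 9.04, 8.72, 8.84 and 9.21 in control. In peripubertal samples it was at 9.24, 9.09, 8.73 and 8.79. Early life 3 alone overlapped the other groups. The difference of early life was −0.48 against control (SE 0.19, adjusted p 0.246) and −0.49 against peripubertal samples (SE 0.19, adjusted p 0.193).

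Prmt5, the main enzyme of symmetric arginine dimethylation, was chosen after its values were seen. It was at 9.94 and 10.42 in early life 1 and 2, which shared an array, and at 11.67 and 11.10 in early life 3 and 4. Control values lay between 11.22 and 11.34 and peripubertal values between 11.36 and 11.52, without overlap. The difference of early life from peripubertal was −0.66 (SE 0.31, adjusted p 0.259) and passed the threshold without early life 3, at −0.94 (SE 0.23, adjusted p 0.0428).

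Lysine demethylases were the largest family, with 14 kept genes. In early life against control 5 of 12 tested genes were above 0 and 7 below, and in peripubertal against control 4 of 14 were above and 10 below. Kdm2b, which removes methyl groups from lysine 36 of histone H3 and binds unmethylated CpG islands, had values in early life 3 and 4 only, at 10.14 and 10.27. Control samples were at 10.58, 10.60, 10.51 and 10.60 and peripubertal samples at 10.46, 10.61, 10.53 and 10.50, so both early life values were the lowest of the 10. The difference of early life was −0.37 against control (SE 0.13, adjusted p 0.223) and −0.32 against peripubertal samples (SE 0.13, adjusted p 0.215), from 1 early life array. Another Kdm2b probe, well above background in all 12 samples, gave −0.37 (SE 0.19) and −0.47 (SE 0.19). A further one, well above background in 9 of 12 samples, gave −0.12 (SE 0.25) and −0.01 (SE 0.25).

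Kdm4a removes methyl groups from lysines 9 and 36 of histone H3. Its brightest probe was at 10.91, 10.97, 11.16 and 10.94 in control and at 10.73, 10.41, 10.59 and 10.66 in peripubertal samples, without overlap, and early life had no value. The difference was −0.40 (SE 0.14, adjusted p 0.867). The other probe was at 11.28 and 10.84 in early life 3 and 4, which shared an array, and between 6.69 and 7.21 in the remaining 10 samples. It was well above background in 1 of 4 control, 2 of 4 early life and 1 of 4 peripubertal samples, so that its fitted difference of early life from control, 2.08 (SE 0.85, adjusted p 0.252 over all probes), compares 1 array with values mostly at background. Kdm6b, a demethylase of lysine 27, differed little between group means, at 10.58 ± 0.42 in control (SD, n = 4), 10.51 and 10.44 in the early life samples measured, and 10.56 ± 0.27 in peripubertal samples (SD, n = 4).

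Histone deacetylases had 8 of 11 genes above 0 in early life against control, 3 of 11 in peripubertal against control and 8 of 11 in early life against peripubertal. Hdac10, known as a polyamine deacetylase of the cytoplasm, was at 10.11, 9.72, 10.25 and 9.95 in control, at 10.72, 10.15, 10.54 and 10.16 in early life, and at 10.54, 10.35, 10.37 and 10.09 in peripubertal samples. The difference from control was 0.39 in early life (SE 0.13, adjusted p 0.19) and 0.33 in peripubertal samples (SE 0.13, adjusted p 0.889). The other Hdac10 probe, with 2 early life values, gave 0.77 (SE 0.32) and 0.75 (SE 0.26). Its control values were 8.95 and 8.79 on 1 array and 9.83 and 9.84 on the other, and without the first array, left out after seeing the data, the differences were 0.29 and 0.27. Both probes thus had both deficient groups above control, against control samples that the comparisons share, and control overlapped each group at the brightest probe.

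Hdac8, a class I deacetylase that acts on cohesin, was at 8.37 and 8.12 in peripubertal 1 and 2 and at 10.15 and 9.39 in peripubertal 3 and 4, which shared an array. The other 8 samples lay between 7.97 and 8.49. The difference of peripubertal from control was 0.80 (SE 0.35, adjusted p 0.974), and the other Hdac8 probe, with all 12 values between 7.53 and 7.71, gave −0.09 (SE 0.10). The high values were thus seen at 1 of 2 probes and on 1 array.

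Hdac3, the deacetylase of the nuclear receptor corepressor complexes, had 2 peripubertal values, 9.02 and 10.02, beside 10.05, 10.51, 10.31 and 10.06 in control and 10.26, 10.34, 10.16 and 10.45 in early life samples. Peripubertal 1 was the lowest of the 10 samples measured. The difference of peripubertal from control was −0.71 (SE 0.28, adjusted p 0.948). Hdac7, a class IIa enzyme, was at 10.32, 10.44, 10.34 and 10.48 in peripubertal samples and at 11.04, 11.52, 10.67 and 11.37 in early life, without overlap, with a difference of 0.76 (SE 0.29, adjusted p 0.189) between them. Control samples spanned both groups, at 10.09, 10.78, 11.49 and 10.88. Hdac1, a class I deacetylase, lay between 10.83 and 11.45 in early life, and was at 11.09, 10.67, 10.54 and 10.31 in peripubertal samples, with an overlap at peripubertal 1, and the difference was 0.46 (SE 0.17, adjusted p 0.169). The other kept Hdac1 probe, well above background in all 12 samples, gave −0.04 (SE 0.18). With outlier spots kept in the fit the value for Hdac1 was −0.45 (adjusted p 0.176), of opposite sign. The brightest probe was chosen again in that setting. Since the probe above had lost no spot, the value may come from another Hdac1 probe.

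Of the sirtuins, Sirt2, a mostly cytoplasmic deacetylase known from oligodendrocytes, had the smallest p. It was at 12.55, 12.42, 12.52 and 12.29 in control, at 12.87, 12.54, 12.79 and 12.73 in early life, and at 12.82, 12.60, 12.65 and 12.48 in peripubertal samples. Early life 2 overlapped the control range and the other early life values lay above it. The difference was 0.29 in early life (SE 0.11, adjusted p 0.228) and 0.19 in peripubertal samples (SE 0.11, adjusted p 0.999). The remaining sirtuins gave differences between −0.27 and 0.11 in both comparisons with control.

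Without overlap between groups of 4 values stood few members. In early life against control this held for 3 of 48 members with 4 values a group, beside 12% of all genes. Tet3 was higher, beside 6.39% of all genes, and Setd1b and Sirt4 were lower, beside 5.59%. In peripubertal against control it held for 4 of 52, beside 7.45% of all genes. Dnmt3l, Kdm4a and Tet1 were lower, beside 4.94%, and Prmt5 was higher, beside 2.51%. In early life against peripubertal it held for 6 of 47, beside 17.8% of all genes. Tet3, Hdac7, Eed and Setd1a were higher, beside 10.3%, and Ezh2 and Prmt8 lower, beside 7.54%. Tet3 was the member found in both comparisons of early life.

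Probes of 1 gene often gave different signs. Among genes with more than 1 testable probe, all probes had the same sign in 13 of 24 genes for early life against control and in 10 of 26 for peripubertal against control. Between the deficient groups it was 12 of 24 genes. The median range between the probes of a gene was 0.28, 0.22 and 0.34 log2 units, beside median absolute differences of 0.24, 0.12 and 0.22 over the members. Some of these probes were near background in a group. Over probes well above background in every measured sample of both groups, a choice made after seeing the data, the signs were shared in 10 of 16, 10 of 23 and 11 of 16 genes, with median ranges of 0.15, 0.20 and 0.22. When each probe was tested as a feature of its own, 0 member probes passed in any comparison, with smallest adjusted p-values of 0.186, 0.785 and 0.0957.

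**Figure D4:**
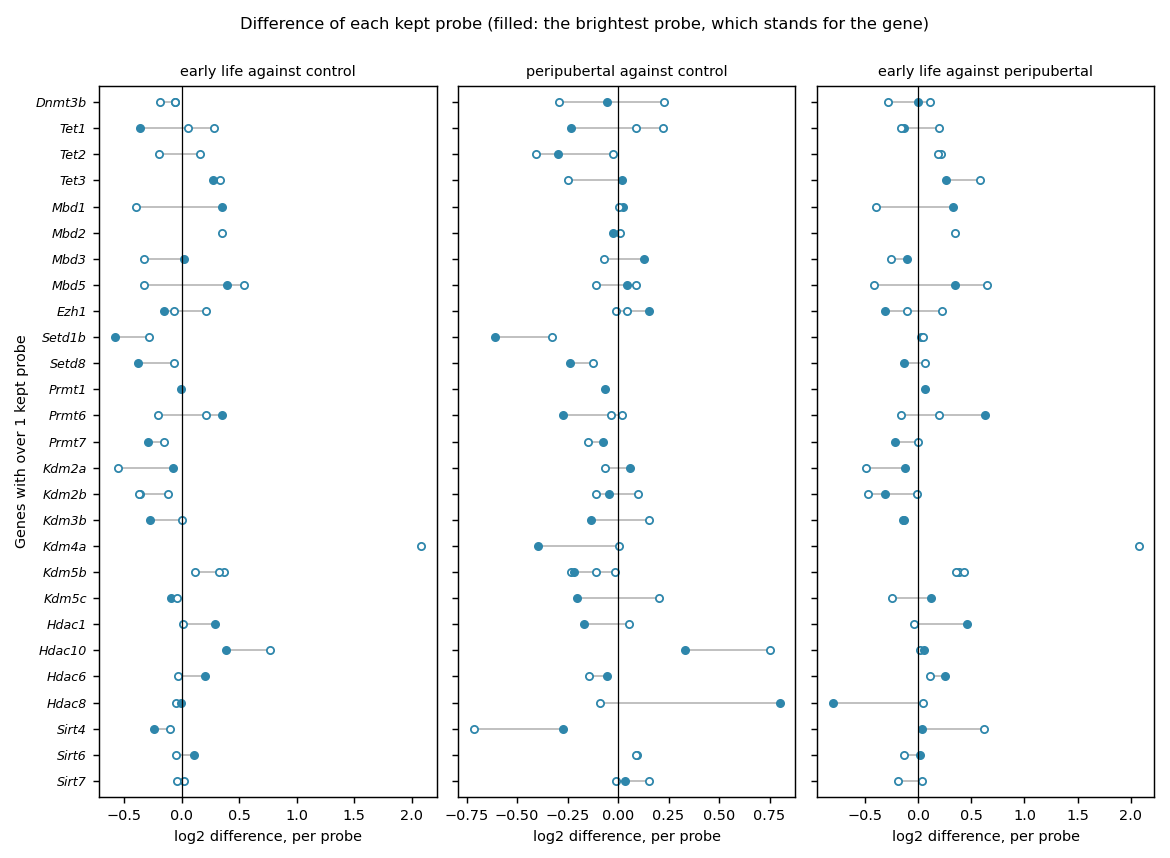
Each point is the fitted log2 difference of 1 kept probe, for genes with more than 1 kept probe, in 3 panels for the 3 comparisons. Filled points are the brightest probes, and the probes of Hdac8 in peripubertal against control and the second Kdm4a probe in early life, at 2.08 against values mostly at background, stand far from their partner or from 0.

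Some of the widest values belonged to single samples or arrays. Peripubertal 1, a Cy3 sample, was the lowest of all 12 by at least 0.5 log2 units for 3 of 46 members with all values, beside 1.41% of all genes. These are Setd1b, a lysine 4 methyltransferase, at 8.82 beside 10.84 to 11.05 in the other peripubertal samples, Sirt4, a mitochondrial sirtuin, at 8.88 beside 10.15 to 10.50, and Mbd4, a reader with glycosylase activity, at 7.07 beside 8.07 to 8.43. At the second probes of Setd1b and Sirt4, peripubertal 1 was at 7.45 and 8.68, and only for Setd1b was that the lowest of its group. Peripubertal 1 was also the lowest of its group for Kdm6a, at 9.19 beside 9.96 to 10.10, and at the brightest Tet2 probe. Setd1b had the largest pooled SD within groups of any member, 0.65, followed by Hdac8 at 0.57. The median pooled SD was 0.25 for members and 0.22 for all genes.

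The 2 early life arrays differed from each other more than those of other groups. The median absolute difference between the array means of a group was 0.30 for members in early life and 0.15 in both control and peripubertal samples, beside 0.23, 0.14 and 0.18 over all genes. It exceeded 0.5 for 9 of 46 members in early life, or 19.6%, beside 18% of all genes. Kdm6a, the X-linked demethylase of lysine 27, was at 9.20 and 8.68 on the array of early life 1 and 2 and at 10.19 and 9.81 on the other, while all control values lay between 9.97 and 10.13. Prmt5 had the same pattern.

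Members were detected more often than the probes as a whole. The spots marked as outliers were left out of the count. Of the measured member probes, 89.1% to 91.8% were well above background in control, 78.0% to 88.8% in early life and 83.3% to 90.2% in peripubertal samples, beside 59.4% to 65.0%, 46.3% to 56.1% and 55.2% to 64.8% of all probes. Both Cy3 samples of early life had the lowest member shares, 78.0% and 78.6%. Of 131 member spots, outlier marks removed 2 and 4 on the control arrays, 15 and 17 on the early life arrays, and 15 and 8 on the peripubertal arrays.

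Between the dyes, 0 of 66 members passed the threshold, beside 0.0525% of 19058 genes, and 8 had an unadjusted p under 0.05, or 12.1% beside 9.84% of all genes. Of these, 1 was higher in Cy5 and 7 lower, beside 6.07% and 3.77% of all genes, and 34 of 66 lay above 0, beside 53% of all genes. Hdac10 had the smallest adjusted p, 0.141, with a Cy5 minus Cy3 difference of −0.35 (SE 0.07) and lower Cy5 values on all 6 arrays, by 0.19 to 0.57. Kdm6b had −0.41 (SE 0.13) and was lower in Cy5 on all 5 arrays that measured it. Hdac8 had −0.38 (SE 0.21) and was lower in Cy5 on all 6 arrays, and Hdac3 had 0.31 (SE 0.15) and was higher in Cy5 on 4 of 5. In all, 9 of 66 members were lower in Cy5 on every array that measured them, beside 4.18% of all genes, and 2 were higher, beside 6.42%. The array-mates of every group hold both dyes, so group means hold both equally where no spot was lost.

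**Figure D5:**
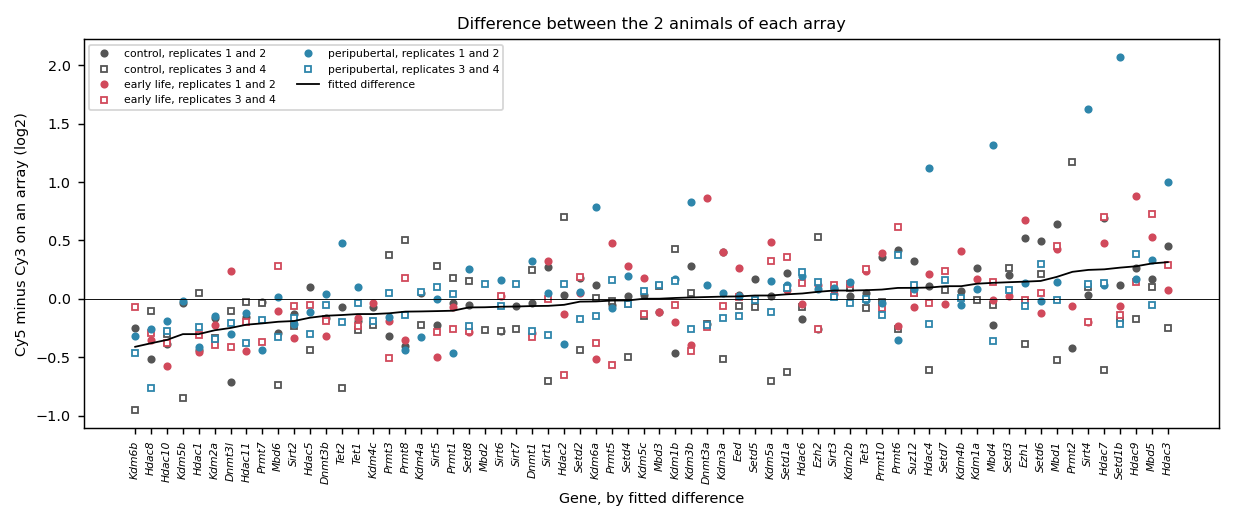
For each of the 66 members, points give the Cy5 value minus the Cy3 value of the 2 animals on an array, and the line gives the fitted dye difference by which genes are ordered. Kdm6b, at −0.41, is at the left and Hdac3, at 0.31, at the right, and the 3 highest points belong to the array of peripubertal 1 and 2.

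Related chromatin genes outside the members showed the same absence of calls. Of 82 listed genes, such as acetyltransferases, other SET domain enzymes and subunits of corepressor complexes, 79 were kept. With 78, 78 and 77 tested, 0 passed in each comparison, and 11, 1 and 12 had an unadjusted p under 0.05. These are 14.1%, 1.28% and 15.6% of the list, beside 17.3%, 5.11% and 20.3% of all genes. Their median differences were 0.02, 0.05 and −0.02. Ep300, a histone acetyltransferase, had −0.78 in early life against control (SE 0.19, adjusted p 0.129) from 2 early life values and −0.82 against peripubertal samples (SE 0.19, adjusted p 0.0944). Kat6a, another acetyltransferase, had 0.48 (SE 0.13, adjusted p 0.137) and Smyd5, a methyltransferase, −0.48 (SE 0.13, adjusted p 0.141) in early life against control. Rbbp4, a histone-binding subunit shared by several complexes, had −0.87 in peripubertal against control (SE 0.24, adjusted p 0.618), followed by Ncoa1 and Phf1 at 0.28 and 0.29. Ahcy, which clears the inhibitory by-product of methylation, and Mta1 had −0.46 (SE 0.11, adjusted p 0.0975) and −0.48 (SE 0.14, adjusted p 0.118) in early life against peripubertal.

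The tissue matched its label: 17 of 17 genes of pituitary hormone cells were kept and 16 of them were well above background in all measured samples, while 4 of 16 ovary genes were kept. Growth hormone, Gh, was the brightest gene or ranked within the first 11 in every sample that measured it. Prl and Pomc, the genes of prolactin and of the corticotropin precursor, were measured in all 12 samples. The smallest adjusted p over the 3 group comparisons was 0.453 for Prl and 0.588 for Pomc. In a whole gland, fewer cells of a type and less RNA per cell cannot be told apart.

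Marker lists of other cells were set beside these values, and no gene of any list passed the threshold. Of 21 tested proliferation genes, 20 were above 0 in early life against control and 18 in early life against peripubertal, with medians of 0.26 and 0.31. Averaged over the list, control samples deviated from the gene means by −0.16 to 0.06, early life samples by 0.04 to 0.49 and peripubertal samples by −0.34 to 0.05, so that the ranges overlapped. Mki67 and Top2a, both markers of dividing cells, had 0.55 (SE 0.43) and 0.06 (SE 0.22) in early life against control. All 8 red cell genes were below 0 in early life against control, with a median of −1.10, and above 0 in peripubertal against control, with a median of 0.80. Their average deviation ran from −1.03 to 1.25 over control, −1.32 to −0.13 over early life and 0.26 to 1.76 over peripubertal samples. Control overlapped both, and the deficient groups did not overlap each other. In early life against peripubertal all 8 were below 0, with a median of −1.87. Of these, 6 had an unadjusted p under 0.05, or 75%, beside 20.3% of all genes. Macrophage genes were below 0 in early life against control in 12 of 12, with a median of −0.41, and endothelial genes in 9 of 11, with a median of −0.26. Above 0 in the same comparison were 8 of 9 posterior lobe genes, with a median of 0.38, 8 of 9 stem and folliculostellate genes, with a median of 0.19, and 6 of 9 pericyte genes, with a median of 0.34. Hormone cell genes were above 0 in 9 of 16, with a median of 0.10. In early life against peripubertal, macrophage genes were below 0 in 12 of 12 and endothelial genes in 8 of 11. Their medians were −0.63 and −0.37. Above 0 were 8 of 9 posterior lobe, 6 of 9 stem and folliculostellate, 5 of 9 pericyte and 8 of 16 hormone cell genes. The part of these lists in the differences of the members was not tested.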

How the data were processed

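Total RNA of 12 pituitaries was labelled with Cy3 or Cy5 and hybridised to 6 arrays. The deposited scanner files hold spot intensity, local background intensity, a processed intensity and marks for outlier, saturated and well-above-background spots, written by Agilent Feature Extraction. Its version was 11.0.1.1 and probe positions are on mm9, per the file headers. The deposited value table holds log2 values with column medians of 0. How the authors made it is not given in the sources used here, and its deficient-group columns served as an alternative only.

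From the raw intensity, normexp (offset 50) removed the background, dyes were balanced by loess with control and outlier spots at zero weight, and channels were scaled by Aquantile. Outlier spots were dropped for both channels, replicate spots of a probe were averaged, and probes well above background in at least 4 of 12 channels were kept, 24533 in all. The brightest probe stood for a gene, which gave 19058 genes. They were fitted with limma 3.58.1 in R 4.3.3, on diet group and dye, with arrays as blocks of correlated samples. The correlation between array-mates was 0.306. The residual degrees of freedom were 8 and the prior added 3.38. Dropped spots reduce the n of a gene, as stated beside its values. The number of arrays limits the precision.

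Members, gene lists and tests were chosen with earlier results of these data known. The text names the methyltransferases of DNA, the TET enzymes and Polycomb repressive complex 2 always, the 8 members of smallest p in each comparison, the 4 largest dye differences, and the 3 other chromatin genes of smallest p in each comparison. Other members are given as counts and ranges, or named after their values were seen (Prmt5, Kdm6a, Setd1b, Sirt4, Mbd4 and those of the outlier check). Mbd1, Mbd2, Mbd3 and Mbd5 are also named outside the rule. P-values rest on the spread within groups, which holds differences between animals and between arrays, with each animal measured once. A difference between slides is not part of that spread. The fit was tested on simulated data. Alternatives changed the spot signal, the offset, the scaling, the filter, the probe rule, the outlier marks, the treatment of array-mates, the samples in the fit and a replicate block, or left out each sample in turn.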

Additional observations from a re-analysis of the deposited data

Results flagged for a closer look

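In 166 groups of 4 values over the kept members, 11 single samples stood far from the other 3, with a gap to the nearest value, as a share of the group's range, above Dixon's critical value at 95%. Chance gives such a gap in about 1 in 20 groups. Among the genes named by rule it was Ezh1 in early life 2, at 12.06 beside 11.27 to 11.38 at its brightest probe. The samples above the rest of their group were Hdac2 in early life 3, at 8.08 beside 7.30 to 7.43, Kdm5a in control 3, at 11.59 beside 10.88 to 10.96, Setd4 in control 3, at 10.70 beside values up to 10.26, and Setd6 in peripubertal 4, at 10.55 beside 10.25 to 10.29. The samples below the rest were Kdm1a in control 1, at 12.43 beside 12.70 to 12.73, Kdm3b in control 1, at 9.42 beside 9.70 to 9.75, Prmt10 in control 1, at 10.10 beside 10.43 to 10.46, and Mbd6 in peripubertal 4, at 11.58 beside 11.90 to 11.92. In peripubertal 1 they were Setd1b, at 8.82 beside 10.84 to 11.05, and Kdm6a, at 9.19 beside 9.96 to 10.10.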

How the results depend on the processing

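The count of members past the threshold stayed at 0 in 23 of 24 alternatives for early life against control, in all 24 for peripubertal against control, in 23 of 25 for early life against peripubertal and in all 3 for the dyes. When single samples were left out it ranged from 0 to 1 in both comparisons of early life: Setd1a passed against control without control 3, and against peripubertal samples Prmt8 passed without control 3 and Prmt5 without early life 3. Calls over all genes ranged from 0 to 520, from 0 to 20, from 0 to 1103 and from 5 to 36 in the same order as above, against 18, 4, 62 and 10. The median difference of the members in early life against control, 0.07, was 0.28 with median centring, −0.003 with probes well above background in all samples, −0.0055 with outlier spots kept and 0.0089 over all kept probes. Median centring also moved it from −0.02 to 0.15 in peripubertal against control. That scaling moved the median of all genes to 0.17 and 0.14, so the members lay 0.11 and 0.01 above the shift. The cause of the other changes was not tested. Over the named members 8 of 367, 14 of 389 and 9 of 411 values changed sign in the 3 comparisons of groups, none of them past the threshold. Among them was Tet1 in early life against control, 0.38 with the software's processed signals. Settings that changed the signal, offset, scaling, filter or outlier marks chose the brightest probe again, so another probe may stand for a gene there. Same-numbered samples of different groups did not deviate together (correlations of −0.29 to 0.06 in 12 pairs), which does not exclude a pairing by number. With the replicate block 0 members passed in each comparison, calls over all genes were 10, 0 and 6, and the adjusted p of Prmt8 in early life against peripubertal was 0.0641.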
